A study of Homo sapiens with 12 samples.

Results

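The genes described here are 45 protein-coding genes of DNA replication and S phase, taken by symbol from the deposited count table of 59653 gene symbols. The list is one of names and takes no measured value as input, though it was chosen with earlier results of these data known. All 45 passed the filter on low counts that kept 24671 genes for testing. Each falls in 1 of 8 role groups: 8 genes of origin licensing and helicase loading, 6 of helicase activation, 8 of the polymerases and primase, 8 of the sliding clamp, its loader and lagging-strand processing, 3 of nucleotide supply, 3 regulators of S phase entry, 4 of chromatin and histone supply, and 5 of repair and checkpoint.

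The RNA came from human cells labelled as neurons and grown from IMR-90 induced pluripotent stem cells, IMR-90 being a fetal lung fibroblast line. The control group (siNC, 6 libraries) received negative control siRNA, and the knockdown group (siZCC, 6 libraries) received ZCCHC17 siRNA, aimed at a gene for a zinc-knuckle RNA-binding protein. All 12 libraries share the same line and the same label of cell type, and sample titles also carry the letters NPC, whose meaning the labels do not give. Whether the RNA came from neurons, progenitors or a mixture is therefore in doubt, and markers of both were measured in every library. The labels do not say whether the 6 replicates of a group were separate cultures, so p-values measure the spread between these libraries.

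Before S phase, the proteins CDC6 and CDT1 help load the ring-shaped MCM2-7 helicase onto origins of replication, and CDC45 and the GINS complex later switch it on. DNA polymerase alpha with primase lays down primers, polymerases delta and epsilon extend them, and PCNA, loaded by replication factor C, tethers the polymerases to DNA. Many of these genes are transcribed at the G1/S boundary under E2F factors, which the retinoblastoma protein RB holds in check. Genes of G2 and mitosis are transcribed later in the cycle, many of them through a promoter element called the cell cycle genes homology region (CHR). Mature neurons have left the cell cycle, whereas neural progenitors divide.

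Promoter letters are shown for 5 of the genes because members that moved and members that did not pass the test both held an E2F word. RefSeq windows (GRCh38.p14) run from 250 bases before to 50 bases after each annotated start. They were searched on both strands for the E2F words TTTCCCGC, TTTCGCGC, TTTGCCGC and TTTGGCGC and for the CHR words TTTGAA and TTTAAA. The run TTTGGCGCGAAA holds 2 overlapping E2F words, 1 on each strand. The stretches lie at chr19:4909958-4910017 for UHRF1 (plus strand), chr20:5126648-5126707 for PCNA (minus), chr2:135876496-135876621 for MCM6 (minus), chr6:52284883-52284942 for MCM3 (minus) and chrX:24693755-24693814 for POLA1 (plus). None of them overlaps a GENCODE v29 exon, and each is printed 5′ to 3′ on the strand of its gene with the word in capitals, as found on either strand.
UHRF1: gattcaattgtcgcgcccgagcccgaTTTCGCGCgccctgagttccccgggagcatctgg
PCNA: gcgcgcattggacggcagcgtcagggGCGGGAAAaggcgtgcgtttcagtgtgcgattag
MCM6: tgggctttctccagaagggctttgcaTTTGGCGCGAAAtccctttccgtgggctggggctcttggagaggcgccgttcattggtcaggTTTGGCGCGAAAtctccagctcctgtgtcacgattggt
MCM3: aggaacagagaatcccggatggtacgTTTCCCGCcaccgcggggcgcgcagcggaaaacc
POLA1: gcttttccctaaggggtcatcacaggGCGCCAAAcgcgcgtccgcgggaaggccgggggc
As a contrast, the mitotic activator CDC20 has 2 CHR words in the stretch chr1:43358777-43358947 (plus strand), in capitals here.
CDC20: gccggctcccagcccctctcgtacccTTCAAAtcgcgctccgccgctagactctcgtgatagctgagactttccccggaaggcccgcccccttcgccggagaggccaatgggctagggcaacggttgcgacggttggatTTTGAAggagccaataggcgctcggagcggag

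An E2F word was present in 23 of the 51 windows of the 39 replication genes that matched the RefSeq table (45.1%), against 3.31% of all 35116 windows of that length and 4.48% of those of genes kept for testing. Windows of members that passed the expression test held it in 6 of 13 cases (46.2%), and windows of the other members in 17 of 38 (44.7%). A CHR word was present in 9 of the 51 member windows (17.6%), against 18.3% of the 19245 windows of genes kept for testing, 24% of all windows, and 25 of 34 windows (73.5%) of the G2 and M phase genes. By call, it was present in 0 of the 13 windows of members that passed and in 9 of the 38 others (23.7%). Counted by gene, that is 0 of 9 and 9 of 30. CCNE2, GINS4, MCM4, MCM5, POLD3 and RPA2 had no window in the table. A match describes these letters, and binding of a factor was not measured.

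The siNC libraries held 90755953 to 120023356 counts and the siZCC libraries 76115083 to 105389055. ZCCHC17 itself was at 56.9 ± 2.49 CPM (counts scaled to the library total after TMM scaling; SD, n = 6) in siNC and 9.999 ± 0.507 in siZCC, with no overlap (log2 fold change -2.51, edgeR adjusted p = 3.52e-17). Of the 13 neuron markers, 6 were lower (46.2%, against 10.8% of all genes) and 1 was higher in siZCC (7.69%, against 11.4%). Of the 12 neural progenitor markers, 2 were lower (16.7%) and 3 higher (25%). The summed neuron markers stood at 3848 to 4307 CPM in siNC and 3493 to 3956 in siZCC, and the summed progenitor markers at 6374 to 6793 and 6414 to 6973. Astrocyte markers (4 of 9 higher, 44.4%, and 1 lower) summed to 1708 to 1922 and 1798 to 2112 CPM, fibroblast markers (1 of 8 higher and 3 lower, 37.5%) to 244.9 to 481.0 and 222.1 to 353.0, and oligodendrocyte lineage markers (0 of 5 tested higher, 1 lower) to 146.6 to 184.1 and 149.9 to 183.7. Pluripotent cell markers (3 of 4 tested higher) summed to 19.73 to 21.62 and 26.01 to 27.43 CPM, and microglia markers (2 tested, neither past the threshold) to 1.178 to 2.252 and 1.31 to 2.082. No marker was at 0 in every library, but SOX10, MOG, TDGF1 and P2RY12 were under 10 counts in all. The part of any of these in the replication genes' values was not tested. In bulk RNA, fewer cells of a type and less RNA per cell cannot be told apart.

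Most replication genes differed little between the groups. Of the 45, 8 fell in siZCC (CLSPN, FEN1, UHRF1, CHAF1B, RFC4, RFC3, GINS3 and PCNA), 1 rose (POLD1), and 36 did not pass the test. That is 20% of the members called, against 22.2% of all genes tested. By direction it is 17.8% lower, against 10.8% of all genes, and 2.22% higher, against 11.4%. The falls were small, with the largest, of CLSPN, at 16.1%. A gene was called where its p from the quasi-likelihood test of edgeR, after Benjamini-Hochberg adjustment over all 24671 genes, was under 0.05, and every adjusted p below comes from that fit unless another is named.

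The members leaned to lower values as a list. The log2 fold change was negative for 33 of the 45 (73.3%, against 50.4% of all genes), with a median of -0.07 (all genes, 0.00) and a range from -0.25 to 0.16. At an unadjusted p under 0.05, 18 members (40.0%) were lower, against 17.0% of all genes, and 2 (4.44%) were higher, against 17.4%. The 95% interval of the log2 fold change, not adjusted for the number of genes, held 0 for the other 25. These intervals reached no lower than -0.37, for CCNE1, and no higher than 0.28, for LIG1. In CLSPN, FEN1, RFC4 and MCM6 every siZCC library was below every siNC library (8.89% of the members, against 4.50% of all genes), and no member had the opposite pattern (5.25% of all genes).

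**Figure D1:**
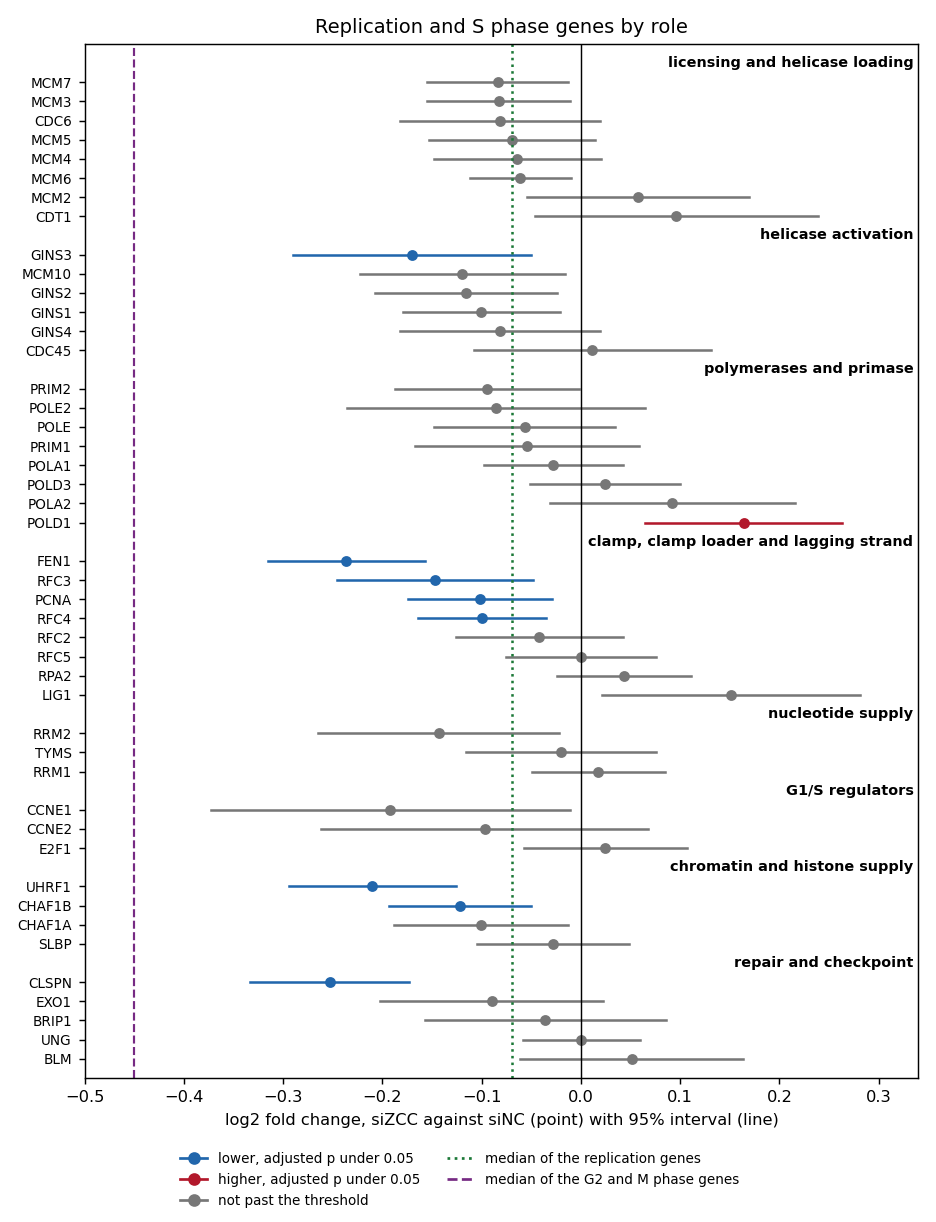
Log2 fold change (siZCC against siNC) of each of the 45 replication genes, by role group, with points for the estimate and lines for the 95% interval; the dotted line is the members' median and the dashed line the median of the G2 and M phase genes. All 45 intervals lie to the right of the dashed line at -0.45, and the 9 coloured points are the genes past the threshold.

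None of the 8 licensing and helicase genes passed the test in edgeR (1, MCM6, was lower with DESeq2 and 0 with limma voom). At an unadjusted p under 0.05 in edgeR, 3 were lower (37.5%, against 17.0% of all genes) and 0 higher (against 17.4%). The median log2 fold change was -0.07. MCM6, a subunit of the ring, was at 47.3 to 49.37 CPM in siNC (median 48.41) and 45.29 to 47.05 in siZCC (median 46.68). The groups of MCM6 did not overlap, yet the difference was only -0.06 (log2, SE 0.0242; edgeR adjusted p = 0.0812). MCM7, another subunit, was at 121.1 to 128.2 CPM in siNC (median 124.2) and 111.0 to 127.1 in siZCC (median 117.6). Of the siZCC libraries, 5 were below all siNC libraries for MCM7 (log2 fold change -0.08, SE 0.0335; edgeR adjusted p = 0.0824). MCM4, the gene with the most reads of the 45, was at 124.7 to 140.3 CPM in siNC (median 132.1) and 116.6 to 135.3 in siZCC (median 127.2), and the groups overlapped (log2 fold change -0.06, SE 0.0398; edgeR adjusted p = 0.273). The remaining subunits MCM3 and MCM5 had log2 fold changes of -0.08 and -0.07, and MCM2 of 0.06, with 23.6% of the exon bases of MCM2 under exons of opposite-strand genes. The loading factors went to either side of 0 as well, CDC6 at -0.08 and CDT1 at 0.10.

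Among the genes that switch the helicase on, 1 of 6 fell in edgeR (16.7%, against 10.8% of all genes) and with limma voom. With DESeq2, 3 fell (GINS1, GINS2 and GINS3). At an unadjusted p under 0.05, 4 of the 6 were lower (66.7%, against 17.0% of all genes). GINS3, a subunit of the GINS complex, was at 6.58 to 7.783 CPM in siNC (median 7.431) and 5.955 to 7.174 in siZCC (median 6.438). All siZCC libraries but replicate 5 were below the lowest siNC library, and GINS3 fell by 11.1% (log2 fold change -0.17, SE 0.0569; edgeR adjusted p = 0.0402). GINS1, its partner in the complex, was at 24.98 to 28.44 CPM in siNC (median 26.18) and 23.4 to 25.84 in siZCC (median 24.75). Here 3 siZCC libraries lay below all siNC libraries, and the difference did not pass (log2 fold change -0.10, SE 0.0376; edgeR adjusted p = 0.0652). GINS2, GINS4 and the scaffold protein MCM10 had log2 fold changes of -0.12, -0.08 and -0.12, and CDC45, which travels with the helicase, of 0.01. Opposite-strand exons cover 23.6% of the exon bases of GINS4 and 10.9% of those of GINS3.

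The polymerases held the single rise among the 45 (1 of 8 genes, 12.5%, against 11.4% of all genes). POLD1, the catalytic subunit of polymerase delta (ENSG00000062822; GRCh38 chromosome 19, 50384204 to 50418016), was at 29.44 to 35.48 CPM in siNC (median 32.34) and 33.26 to 38.42 in siZCC (median 36.77). The groups overlapped, with 3 siZCC libraries above all siNC libraries, and POLD1 rose by 12% (log2 fold change 0.16, SE 0.0472; edgeR adjusted p = 0.0192). Exons of a same-strand gene, AC020909.1, cover 8.64% of its exon bases in GENCODE v29. PRIM2, the large primase subunit, was at 9.597 to 11.02 CPM in siNC (median 10.09) and 9.048 to 10.07 in siZCC (median 9.479). Although 4 siZCC libraries were below all siNC libraries for PRIM2, it did not pass (log2 fold change -0.09, SE 0.0439; edgeR adjusted p = 0.138). The small primase subunit PRIM1 had a log2 fold change of -0.05, and the polymerase alpha subunits POLA1 and POLA2 of -0.03 and 0.09. POLD3, an accessory subunit of polymerase delta, was at 0.02, and the polymerase epsilon subunits POLE and POLE2 were at -0.06 and -0.09.

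The group with the most falls was the clamp, its loader and lagging-strand processing. Of its 8 genes, 4 fell (50%, against 10.8% of all genes) and 0 rose (against 11.4%). DESeq2 and limma voom each gave 4 and 0. In edgeR 1 gene, LIG1, was higher at an unadjusted p under 0.05 (12.5%, against 17.4% of all genes). FEN1, the nuclease that trims flaps off Okazaki fragments (ENSG00000168496; chromosome 11, 61792637 to 61797244), was at 32.9 to 35.42 CPM in siNC (median 33.97) and 27.42 to 31.37 in siZCC (median 28.26). The groups did not overlap, and FEN1 fell by 15.1% (log2 fold change -0.24, SE 0.0375; edgeR adjusted p = 0.000291). RFC4, a subunit of the clamp loader, was at 20.95 to 22.71 CPM in siNC (median 21.56) and 19.55 to 20.64 in siZCC (median 20.22). Its groups did not overlap either, and RFC4 fell by 6.66% (log2 fold change -0.10, SE 0.0305; edgeR adjusted p = 0.0267). RFC3, a second loader subunit, fell from 20.54 ± 0.928 to 18.53 ± 1.35 CPM (SD, n = 6 each; log2 fold change -0.15, edgeR adjusted p = 0.0317). PCNA, the clamp itself, fell from 89.92 ± 3.85 to 83.79 ± 3.43 CPM (SD, n = 6 each; log2 fold change -0.10, edgeR adjusted p = 0.0421). The loader subunits RFC2 and RFC5 were at -0.04 and 0.00, and RPA2, of the single-strand binding complex, at 0.04. LIG1, the ligase that joins Okazaki fragments, had 59.79 ± 6.48 CPM in siNC and 66.41 ± 4.32 in siZCC (log2 fold change 0.15, 95% interval 0.02 to 0.28; edgeR adjusted p = 0.0895). FEN1 and LIG1, which act one after the other on the lagging strand, thus had estimates of opposite sign, and only that of FEN1 passed.

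Nucleotide supply gave no calls among its 3 genes in edgeR, and 0 with DESeq2 and with limma voom. At an unadjusted p under 0.05 in edgeR, 1 was lower (33.3%, against 17.0% of all genes) and 0 higher (against 17.4%). RRM2, the small subunit of ribonucleotide reductase whose level follows the cell cycle, was at 61.17 to 73.49 CPM in siNC (median 65.69) and 55.02 to 68.99 in siZCC (median 58.96). The groups overlapped although 4 siZCC libraries were below all siNC libraries (log2 fold change -0.14, SE 0.0576; edgeR adjusted p = 0.0853). Exons of the same-strand gene AC007240.1 cover 20.2% of its exon bases. RRM1, the large subunit of the same enzyme, was at 97.84 to 109.0 CPM in siNC (median 101.9) and 101.6 to 107.1 in siZCC (median 104.6). Every siZCC value of RRM1 lay within the siNC range (log2 fold change 0.02, 95% interval -0.05 to 0.08; edgeR adjusted p = 0.747). TYMS, thymidylate synthase, had a log2 fold change of -0.02, and exons of opposite-strand genes, ENOSF1 and TYMSOS, cover 46.6% of its exon bases, with the strand setting of the counting not given.

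The 3 regulators of S phase entry also gave no calls in edgeR, and 0 with DESeq2 and with limma voom. At an unadjusted p under 0.05 in edgeR, 1 was lower (33.3%, against 17.0% of all genes) and 0 higher (against 17.4%). CCNE1, cyclin E1, the member with the fewest reads, was at 3.323 to 4.1 CPM in siNC (median 3.868) and 2.903 to 4.178 in siZCC (median 3.238). Here 4 siZCC libraries were below all siNC libraries and 1 was above them all (log2 fold change -0.19, SE 0.0857; edgeR adjusted p = 0.122). CCNE2, cyclin E2, was at 6.705 to 8.237 CPM in siNC (median 7.53) and 6.059 to 8.355 in siZCC (median 6.835), so that the siZCC range enclosed the siNC range (log2 fold change -0.10, SE 0.0779; edgeR adjusted p = 0.413). Exons of opposite-strand genes cover 37.1% of the exon bases of CCNE2. The strand setting of the counting is not given, and what the overlap does to the counts of CCNE2 was not tested. E2F1, an activating E2F factor, had 22.98 ± 0.983 CPM in siNC and 23.38 ± 1.15 in siZCC (SD, n = 6 each; log2 fold change 0.02, 95% interval -0.06 to 0.11).

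In the chromatin and histone supply group 2 of 4 genes fell (50%, against 10.8% of all genes). It was the 1 role group whose mean log2 CPM was lower in all 6 siZCC libraries (4.89 to 5.002) than in every siNC library (5.006 to 5.111). UHRF1, which reads hemimethylated DNA behind the fork (ENSG00000276043; chromosome 19, 4903080 to 4962154), was at 41.9 to 48.94 CPM in siNC (median 47.09) and 38.77 to 43.9 in siZCC (median 39.84). The groups met at siNC replicate 3 and siZCC replicate 5, and UHRF1 fell by 13.5% (log2 fold change -0.21, SE 0.04; edgeR adjusted p = 0.00127). CHAF1B, a subunit of the chromatin assembly factor that deposits new histones, was at 15.71 to 17.19 CPM in siNC (median 16.83) and 14.86 to 15.78 in siZCC (median 15.37). All but 1 siZCC library lay below the lowest siNC library, and CHAF1B fell by 8.1% (log2 fold change -0.12, SE 0.034; edgeR adjusted p = 0.0163). CHAF1A, its partner subunit, was at -0.10 (edgeR adjusted p = 0.0936), and SLBP, which binds the stem-loop of histone mRNAs, at -0.03.

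Of the 5 repair and checkpoint genes, 1 fell (20%, against 10.8% of all genes), and it changed more than any other member. CLSPN, claspin, the adaptor that helps ATR activate CHK1 at stalled forks (ENSG00000092853; chromosome 1, 35720218 to 35769967), was at 26.81 to 30.12 CPM in siNC (median 27.72) and 22.31 to 25.26 in siZCC (median 23.57). The groups did not overlap (log2 fold change -0.25, SE 0.038; edgeR adjusted p = 0.000186). EXO1, an exonuclease of mismatch repair, was at 9.623 to 11.74 CPM in siNC (median 10.8) and 9.463 to 10.74 in siZCC (median 10.27), with overlapping groups (log2 fold change -0.09, SE 0.0532; edgeR adjusted p = 0.251). The helicases BLM and BRIP1 were at 0.05 and -0.04 on the log2 scale. UNG, which removes uracil from DNA, was at 39.73 ± 1.2 CPM in siNC and 39.74 ± 0.714 in siZCC (SD, n = 6 each; log2 fold change 0.00, 95% interval -0.06 to 0.06).

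**Figure D2:**
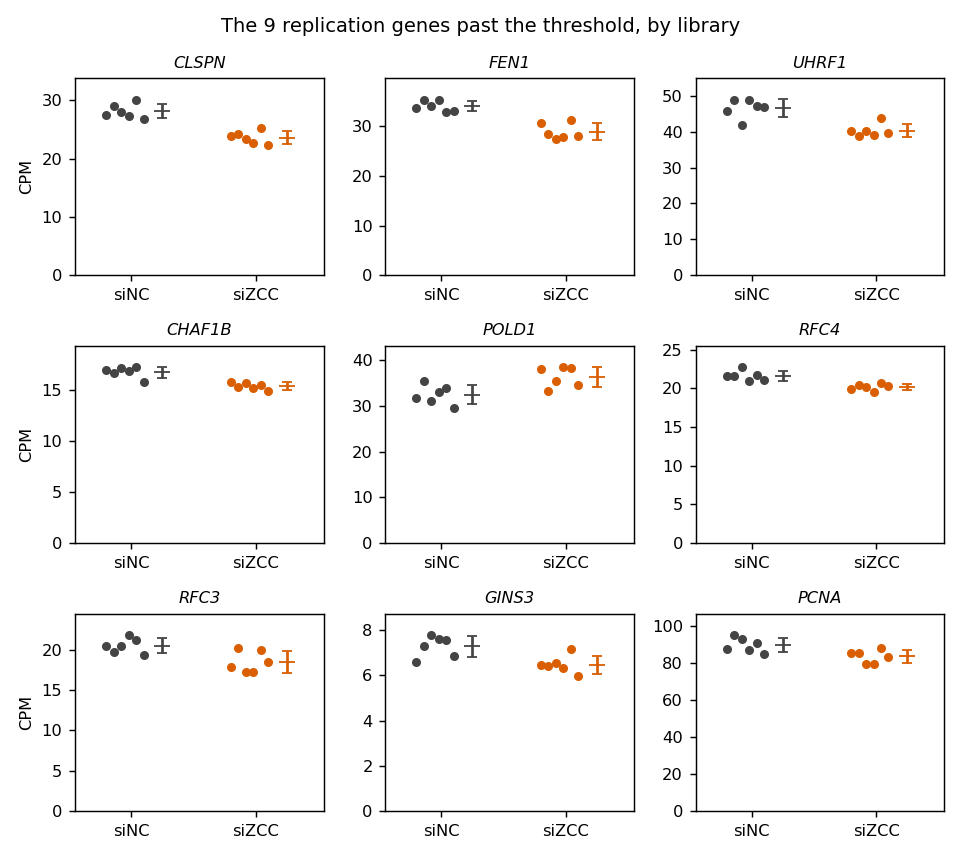
CPM (y axis, from 0) in each library for the 9 replication genes past the threshold, with points for libraries, and a bar and whiskers for the mean and SD of each group of 6. CLSPN, FEN1 and RFC4 show no overlap between siNC and siZCC, and POLD1 is the 1 gene of the 9 whose siZCC mean is the higher.

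Per length the levels spread far more between genes than between groups. In CPM per kilobase of annotated exon (RPKM), PCNA had the highest siNC level at 61.1, followed by MCM7 at 28.4, TYMS at 27.3 and RRM1 at 24.7. The lowest were POLA2 at 0.849, GINS3 at 1.43 and CCNE1 at 1.5 RPKM. Subunits that act in 1 complex were not level: polymerase alpha's POLA1 stood at 3.99 RPKM beside 0.849 for POLA2, and the MCM ring ran from 5.16 for MCM5 to 28.4 for MCM7. Part of this spread comes from the annotated length, 7338 exon bases for MCM5 and 4386 for MCM7. Without it, MCM5 was at 37.85 CPM in siNC and MCM7 at 124.6. Same-strand exons of AP000944.2 cover 35.1% of the exon bases of POLA2.

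The calls near the threshold were lost in some of the fits that left out 1 library, while the fold changes stayed of similar size. The number of members called lower was 8 in all 12 libraries, 4 without siZCC replicate 4 and 13 without siZCC replicate 5. It was 5 without siNC replicate 3, siNC replicate 5 or siZCC replicate 3. Counts over all genes in these fits are not given here, so no share stands beside these numbers. GINS3 passed in only 3 of those 12 fits, those without siNC replicate 1, siNC replicate 6 or siZCC replicate 5, and its log2 fold change was -0.20 to -0.15 over the 12. PCNA was lost without siNC replicates 1, 2, 3 or 5 or siZCC replicates 3, 4 or 6, with log2 fold changes of -0.12 to -0.08. RFC3 was lost without siNC replicates 1, 4 or 5 or siZCC replicates 1, 3 or 4, and RFC4 without siNC replicate 3 or siZCC replicate 4. The log2 fold change was -0.17 to -0.12 for RFC3 and -0.11 to -0.08 for RFC4 over the 12 fits. LIG1 passed as a second higher gene without siNC replicate 2 or siNC replicate 5. CLSPN, FEN1, UHRF1, CHAF1B and POLD1 passed in all 12 of these fits. Against a minimum change of 1.2-fold, 0 of the 45 members passed in edgeR (0 at an unadjusted p under 0.05 as well). So did only 349 of all 24671 genes, and 0 of 45 lies near that share. In limma voom and DESeq2, which test against no change, 8 and 11 members were lower and 1 higher each. Over all genes, limma voom called 2624 lower and 2822 higher, and DESeq2 2986 and 3084. The main fit called 2663 lower and 2818 higher.

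Within each group, a few libraries held the highest or the lowest value for many replication genes. The mean log2 CPM of the 45 genes was 4.634 to 4.762 in siNC and 4.582 to 4.74 in siZCC, a difference of -0.06 beside SDs of 0.0542 and 0.0563. Only 3 of the 6 siZCC libraries were below all siNC libraries by this mean. The siZCC replicate 5 had the highest value of its group in 31 of the 45 genes, and siZCC replicate 6 the lowest in 20. In siNC, replicate 6 was the lowest in 23 genes and replicate 1 in 13, while replicate 5 was the highest in 16 and replicate 2 in 13. The labels name no batch. The libraries fall into 3 of each group with high IL1B, an inflammatory cytokine gene, and 3 with low IL1B, a split known from earlier work on these data. Within the high libraries 2 members were lower (CLSPN and FEN1) and 1 higher (POLD1), with a median log2 fold change of -0.03. Over all genes that fit called 992 lower and 1051 higher. Set beside the 24671 genes of the main fit, the 2 and 1 members lie near those shares. Within the low libraries 5 were lower (CLSPN, FEN1, UHRF1, MCM3 and MCM7) and 0 higher, with a median of -0.09. Over all genes that fit called 732 lower and 870 higher. Set beside the same 24671 genes, 5 of 45 lies above the lower share, and 0 of 45 lies near the higher one. The difference between the 2 sides was not tested.

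The other replication factors leaned lower as the members did. Of 51 such genes, 11 fell (21.6%, against 10.8% of all genes) and 1 rose (1.96%, against 11.4%), with a median log2 fold change of -0.04. NASP, a histone chaperone, fell from 208.7 ± 4.04 to 183.5 ± 4.55 CPM (SD, n = 6 each; log2 fold change -0.19, edgeR adjusted p = 7.79e-05). The groups of NASP did not overlap. The gene that rose was DONSON, a factor of helicase assembly, at 32.95 ± 0.623 and 35.67 ± 2.07 CPM (log2 fold change 0.12, edgeR adjusted p = 0.0301), and its groups overlapped.

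Of 33 genes of the RB and E2F pathway, 4 fell (12.1%, against 10.8% of all genes) and 2 rose (6.06%, against 11.4%), with a median log2 fold change of -0.01. CDKN1A, the cyclin-dependent kinase inhibitor p21, rose from 650.7 ± 81.8 to 980.9 ± 80.9 CPM (SD, n = 6 each; log2 fold change 0.59, edgeR adjusted p = 2.21e-05), without overlap. E2F6, a repressive E2F factor, rose from 33.05 ± 0.75 to 34.99 ± 0.386 CPM (log2 fold change 0.08, edgeR adjusted p = 0.0315). CDKN2C, the CDK4 and CDK6 inhibitor p18, fell from 13.15 ± 0.675 to 10.13 ± 0.745 CPM (log2 fold change -0.38, edgeR adjusted p = 8.21e-05). FOXM1, a transcription factor of mitotic genes, fell from 72.23 ± 2.56 to 62.38 ± 4.29 CPM (log2 fold change -0.21, edgeR adjusted p = 0.00158). The inhibitors CDKN1A and CDKN2C therefore moved in opposite directions.

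The G2 and M phase genes of the same libraries had larger fold changes. Of 30 such genes, 28 fell (93.3%, against 10.8% of all genes) and 0 rose (against 11.4%), with a median log2 fold change of -0.45. DESeq2 and limma voom each gave 28 and 0. In edgeR 1 gene was higher at an unadjusted p under 0.05 (3.33%, against 17.4% of all genes). CCNB1, cyclin B1, fell from 50.22 ± 2.04 to 33.02 ± 2.14 CPM (SD, n = 6 each; log2 fold change -0.61, edgeR adjusted p = 1.17e-07), and BIRC5, survivin, from 37.66 ± 0.893 to 26.5 ± 1.65 (log2 fold change -0.51, edgeR adjusted p = 3.39e-07). In all, 27 of the 30 had a log2 fold change below that of every replication gene. CDC25B and NUSAP1 did not pass, at 0.08 and 0.12. NUSAP1 had only 65 to 102 counts per library, and its estimate is uncertain (SE 0.0991). The mean log2 CPM of these genes was 4.728 to 4.82 in siNC and 4.243 to 4.464 in siZCC, and all 6 siZCC libraries were below all siNC libraries. The replication mean minus the G2 and M mean was -0.1069 to 0.0342 in siNC and 0.276 to 0.4238 in siZCC. The difference between the lists was not tested.

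**Figure D3:**
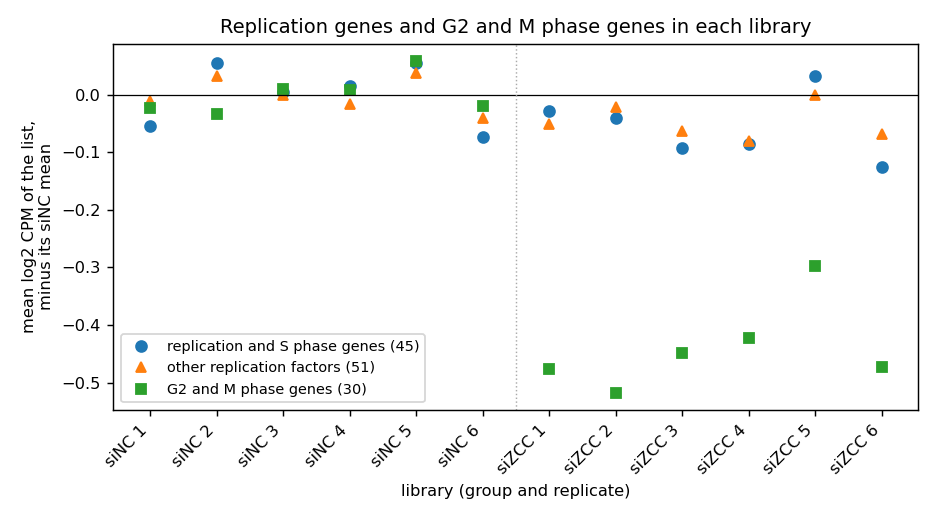
Mean log2 CPM of 3 gene lists in each library (x axis), minus the list's own siNC mean. The replication genes of siZCC replicate 5 sit above the siNC mean, while the G2 and M phase genes are below every siNC library in all 6 siZCC libraries.

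**Figure D4:**
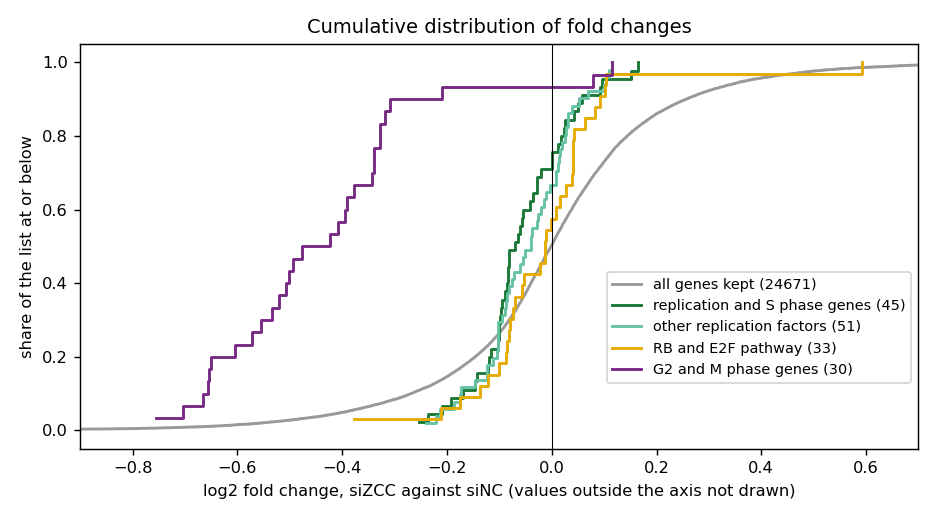
Cumulative share of genes (y axis) at or below each log2 fold change (x axis) for the 45 replication genes, 3 other lists and all 24671 genes tested. The replication curve is steep between -0.25 and 0.16 and crosses 0 at 73.3% negative, whereas the G2 and M phase curve has its median at -0.45.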

How the data were processed

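Total RNA, lysed in Qiazol, was made into libraries with the NEBNext Ultra II Directional kit, per the labels' protocols. The deposited table holds raw counts per gene symbol for 12 libraries. The submitters' processing notes name bcl2fastq 2.17, STAR 2.7.6a, featureCounts 2.0.1 and GRCh38, and the annotation and strand setting are not given in the sources used here. Groups came from the labelled siRNA.

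Genes passing filterByExpr were tested with edgeR 4.0.16 (quasi-likelihood, TMM scaling, no covariate, Benjamini-Hochberg over 24671 genes, threshold 0.05) in R 4.3.3. CPM used TMM-scaled totals, and the mean log2 CPM of a list added a small fixed offset to each CPM. A prior count of 2 was used for the IL1B split and for the deviations of same-numbered libraries. The biological coefficient of variation was 6.55%. The members and lists were chosen with earlier results of these data known. Values are given for the target, for the 2 members of smallest p in each role group, for members that rose, for the 3 most abundant, and for the 2 pathway genes of smallest p in each direction. A gene that this rule names among the other replication factors is not reported here. A few others (RFC3, PCNA, LIG1, E2F1, UNG and the lowest and highest by RPKM) were added after their values were seen. RPKM used the union of GENCODE v29 exons, whose overlaps and coordinates are from that annotation.

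Alternatives were other scalings, filters and tests (DESeq2 1.42.0, limma 3.58.1 voom), a 1.2-fold minimum, thinning to the smallest total, blocks, the IL1B sides, and leaving out each library. The code was tested on simulated data. Libraries of a group differed beyond counting noise (chi-square per degree of freedom 5.15 to 24.9), so each was counted once.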

Additional observations from a re-analysis of the deposited data

Results flagged for a closer look

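In each group of 6 libraries, the gap between the highest or lowest library and its nearest neighbour was set against the group's range, and compared with the 95% critical value of Dixon's test. In 98 groups examined this picked out 5 values, where 4.9 are due at 1 in 20. The 45 replication genes were 4 of these values. In siZCC replicate 5, POLA1 was at 26.2 CPM (the others 24.1 to 24.9), PRIM1 at 8.46 (7.33 to 7.65) and UHRF1 at 43.9 (38.8 to 40.3), each the highest of its group. RFC5 was the lowest of its group in siZCC replicate 6, at 22.2 CPM (the others 24.1 to 24.96). The fifth value was the total of siNC replicate 4, 90755953 counts, where the other siNC libraries had 109973707 to 120023356.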

How the results depend on the processing

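The members' median log2 fold change stayed negative under every alternative, at -0.03 and -0.09 in the libraries with high and low IL1B and -0.089 to -0.058 with a library left out. No called member changed sign. CLSPN and FEN1 passed under all alternatives but the 1.2-fold minimum. Members called lower numbered 0 under that minimum, 2 and 5 in the high and low IL1B libraries and 4 to 13 with a library left out. Members called higher numbered 0 under the 1.2-fold minimum and in the low IL1B libraries, 2 with the replicate number as a block (POLD1 and LIG1) and 1 to 2 with a library left out. Each IL1B side holds 3 libraries a group, and so fewer samples. Counts over all genes are not given here for the fits with a library left out.

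Genes called over the whole table numbered 349 (181 higher, 168 lower) under the 1.2-fold minimum, 2043 (1051 and 992) with high IL1B and 1602 (870 and 732) with low IL1B. Of the other replication factors, 0, 3 and 5 were lower under these 3 settings and 7 to 11 with a library left out. None of them was higher (0) under these 3, without a filter or after thinning, and 0 to 2 were with a library left out. Of the RB and E2F genes, 0, 1 and 2 were lower under the same 3. The number higher was 1 under these 3, with upper quartile scaling, without a filter and with the replicate block, 4 with a mean count of at least 50 and with DESeq2, and 1 to 4 with a library left out. Of the G2 and M genes, 18 were lower under the 1.2-fold minimum, 0 to 1 were higher with a library left out, and the median was -0.52 with low IL1B. The cause was not tested.

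Same-numbered libraries correlated at -0.077 to 0.018 in their deviations. The libraries of every such pair lay on opposite IL1B sides, so these correlations cannot tell whether the numbers pair the libraries. The replicate block left 8 members lower. PCNA and RFC4 missed the threshold there (adjusted p = 0.0514 and 0.0563), and MCM10 and RRM2 passed it. Among the members, depth limits CCNE1 most, at 222 to 479 counts per library.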
